A study of Mus musculus with 8 samples.

Results

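The 9 genes described here encode small EF-hand calcium sensors and buffers that are known from neurons and neuroendocrine cells: Scgn, Ncald, Hpca, Hpcal1, Ncs1, Hpcal4, Vsnl1, Pvalb and Calb1. They were chosen by name from the deposited table, which listed 53710 gene IDs. Scgn itself was chosen for its values in these libraries, namely its high level in 5xFAD glands and its intermediate level in the wild type library Normal-22, so the Scgn values below are a description and carry no test. All 9 were listed in the table. A mean of at least 1 FPKM (fragments per kilobase of transcript, scaled to the fragments mapped in the library) over the 8 libraries was reached by 5 of them, and 4 lay under it.

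The EF-hand is a helix-loop-helix fold that binds calcium ions. Sensors such as neurocalcin delta and hippocalcin change shape when calcium rises inside the cell, and the neuronal calcium sensor family often carries a fatty acid tail with which its members move to membranes, while buffers such as parvalbumin and calbindin mainly take up calcium. Secretagogin, the product of Scgn, is a sensor of neuroendocrine and some neuronal cells that is known to bind SNAP-25, a protein of the vesicle fusion machinery. The pineal gland consists mostly of pinealocytes, cells of neuroectodermal origin related to photoreceptors that make melatonin at night under sympathetic control.

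The study compared the pineal glands of 5xFAD mice, a transgenic model of the amyloid pathology of Alzheimer's disease, with those of wild type mice by RNA sequencing. The 5xFAD group held 4 libraries with the title numbers 1, 2, 3 and 21 (called 5xFAD-1 and so on), from male mice of a B6.Cg background from The Jackson Laboratory, which carry human APP with the Swedish, Florida and London mutations. Transgene expression is driven by the Thy1 promoter, which is active mainly in neurons. The wild type group held 4 libraries with the title numbers 11, 21, 22 and 23 (called Normal-11 and so on), from male C57BL/6 mice of a different supplier, so that genotype and supplier cannot be told apart. All mice were 5 months old, were kept with 12 h of light and 12 h of dark and were killed under ether at zeitgeber time 0.5 h, shortly after lights on. Values listed for the libraries of a group follow the order of these numbers. Every library pooled the glands of 5 to 7 mice. The replicates are therefore pools and do not show the spread between single animals. As the glands were sequenced in bulk, a lower share of cells of a type and less RNA per cell cannot be told apart.

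The deposited FPKM steps implied that values were divided by a total of 11850000 to 19330000 fragments per library. Whether this total was scaled between libraries is not given, so it may differ from the fragments counted. The 10 pinealocyte genes summed to 2020 to 3300 FPKM in 5xFAD and 1280 to 2930 FPKM in wild type, mostly from Tph1 and Sag, and each of the 10 was above a mean of 1 FPKM. Aanat, the night-time enzyme of melatonin synthesis, was low, with 0.943 to 34.8 FPKM in 5xFAD and 1.21 to 7.45 FPKM in wild type. One library went against its labels: Xist, the transcript of the inactive X chromosome, stood at 13.3 FPKM in Normal-22 and at no more than 0.0404 FPKM in the other 7, although Y-linked genes such as Ddx3y (32.0 FPKM in Normal-22) were present in all 8 libraries labelled as male. Results are therefore also given without Normal-22. RNA of neighbouring tissues differed between the pools. The 6 genes of the osteoblast list summed to 183, 417, 215 and 36.5 FPKM in the 5xFAD libraries, against 1950, 1520, 84.0 and 939 FPKM in the wild type libraries, and 5xFAD-2 had 516 FPKM of the brown fat gene Ucp1. The 4 choroid plexus genes Folr1, Kl, Kcnj13 and Clic6 summed to 38.3, 529, 469 and 754 FPKM in the 5xFAD libraries. In the wild type libraries they summed to 551, 542, 303 and 563 FPKM. The rest of the choroid plexus list did not set 5xFAD-1 apart from the other 5xFAD libraries. The part of these tissues in the results below was not tested.

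Scgn lies on mouse chromosome 13, minus strand, at chr13:23953456-23991214 in GRCm38, and its longest annotated transcript has 1412 nt. The window from 250 bases before to 50 bases after its start is shown because Scgn had the widest separation of the 9 genes. The sequence is from RefSeq, build GRCm38.p6, chr13:23991165-23991464, read on the minus strand. The capitals mark the only match among 5 motifs searched on both strands, listed here with the factors known to bind such sequences, which were TAATCC for the pineal and photoreceptor factor CRX, TGACGTCA for CREB, TGAGTCA for AP-1, CAGATG for NeuroD factors and CACGTG for clock factors. The match is a TGAGTCA whose first base lies at position -191 from the start.
Scgn: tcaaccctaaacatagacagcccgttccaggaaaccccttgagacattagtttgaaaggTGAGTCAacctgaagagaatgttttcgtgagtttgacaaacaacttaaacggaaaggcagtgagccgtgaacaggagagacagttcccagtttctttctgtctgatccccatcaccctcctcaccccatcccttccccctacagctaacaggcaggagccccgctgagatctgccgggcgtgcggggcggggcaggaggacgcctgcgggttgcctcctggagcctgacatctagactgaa
This heptamer occurred in 5.2% of 32851 promoter windows of the same length. TAATCC was not in the Scgn window and occurred in 7.1% of all windows. The RefSeq table held 11 windows for 7 of the 9 genes, and none for Ncald and Calb1. In the other windows, 1 for Hpca held TAATCC, with its first base at -66, and a different one of its windows held CACGTG at -180, a sequence found in 7.2% of all windows. CAGATG, found in 17.2% of all windows, stood at -225 in Hpcal4 and at -174 in Vsnl1. No motif was shared by all members with a window.

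Scgn was far higher in the 5xFAD glands. It had 25.8, 10, 22.3 and 22.8 FPKM in the 5xFAD libraries, against 0.913, 0.715, 4.80 and 0.958 FPKM in the wild type libraries. Every 5xFAD library lay above every wild type library, Normal-22 stood apart from the other wild type pools, and 5xFAD-2 was the lowest of its own group. The means were 20.2 ± 6.97 FPKM in 5xFAD and 1.85 ± 1.97 FPKM in wild type (SD, n = 4 libraries each), an 11-fold difference, and the log2 fold change on log2(FPKM + 0.1), the scale of all fold changes below, was 3.74. The rule that chose Scgn used these values, so no p is given.

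The separation rested on fragments that could be counted. The FPKM of Scgn were whole multiples of what 1 fragment is worth in each library (0.0417 to 0.0684 FPKM), and they stood for 619, 229, 515 and 381 fragments in the 5xFAD libraries. The wild type libraries held 16, 13, 79 and 14 fragments. The exact Poisson 95% interval, which covers counting error only, was 8.78 to 11.4 FPKM in 5xFAD-2 and 3.80 to 5.98 FPKM in Normal-22, the libraries nearest to each other across the groups, and the values themselves differed 2.09-fold. In Normal-21, the lowest library, the interval was 0.381 to 1.22 FPKM. The intervals of Normal-11 (0.522 to 1.48 FPKM) and Normal-23 (0.524 to 1.61 FPKM) cover nearly the same range, so these 3 libraries cannot be ordered at this depth.

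Normal-22 carried Scgn at a level between the groups. Its 4.80 FPKM were 5.57 times the mean of the other wild type libraries, which was 0.862 ± 0.129 FPKM (SD, n = 3), while the 5xFAD mean was 4.21 times Normal-22 and 23.5 times the mean of those 3. The highest library exceeded the lowest 2.57-fold within 5xFAD and 6.72-fold within wild type. Without Normal-22 the log2 fold change of Scgn was 4.32, and between libraries whose title numbers lie below 20 (5xFAD-1, 5xFAD-2 and 5xFAD-3 against Normal-11) it was 4.16. Between those of 20 or above (5xFAD-21 against Normal-21, Normal-22 and Normal-23) it was 3.82. What the title numbers mark is not given in the sources used here.

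**Figure D1:**
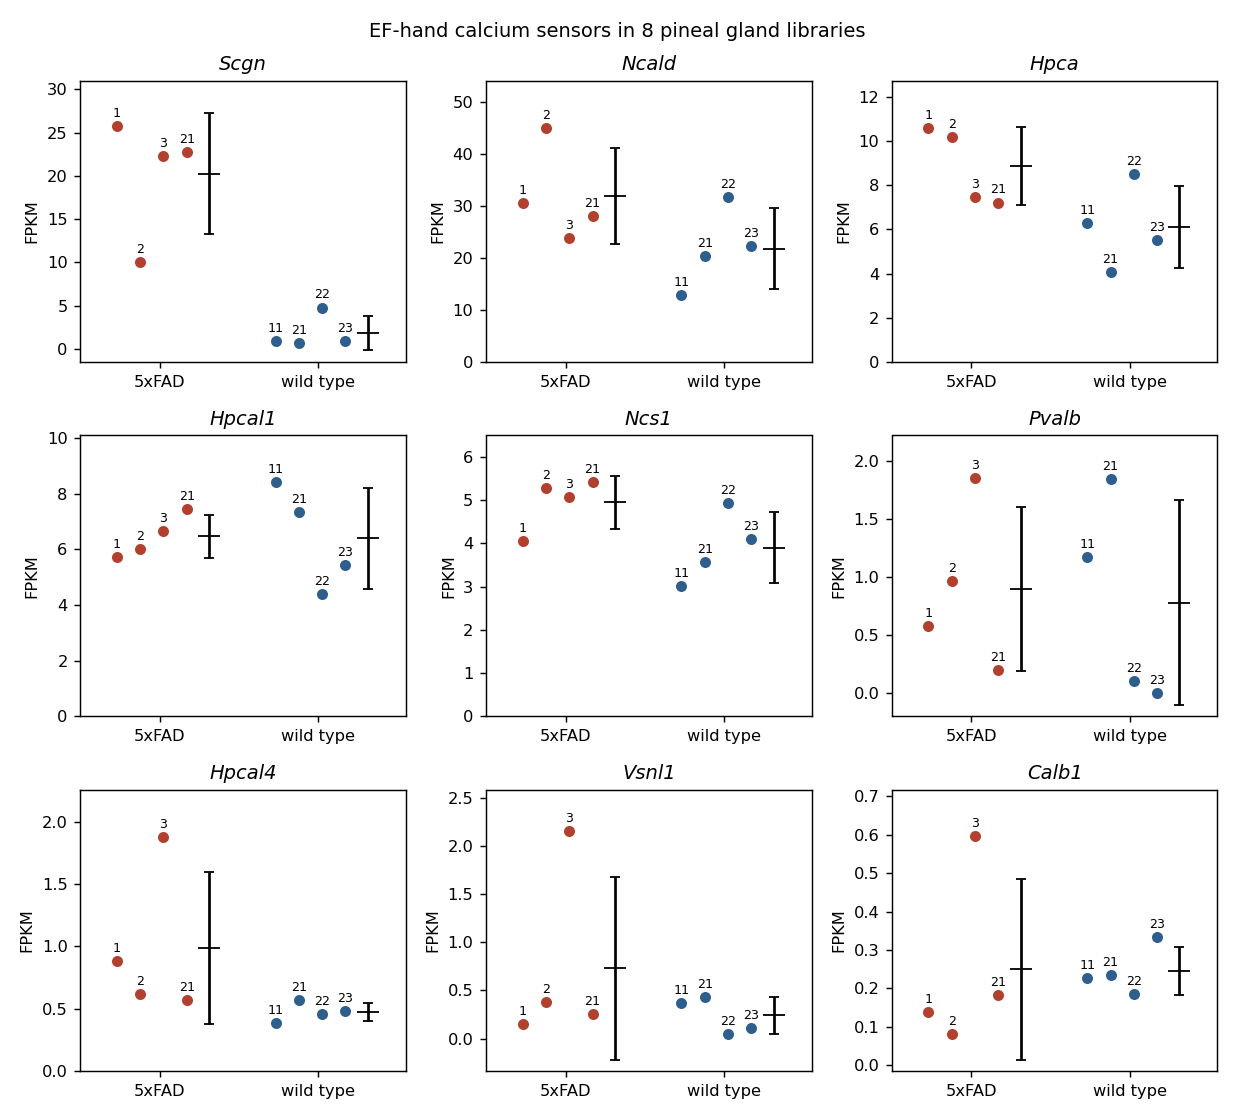
Levels of the 9 genes in FPKM (vertical axes, linear, each with its own range) in the 4 libraries of 5xFAD (left, red) and the 4 of wild type (right, blue), with each point labelled by the library's title number and the bar giving the mean ± SD of the group. The Scgn points of 5xFAD sit between 10 and 25.8 FPKM, above all wild type points, with Normal-22 at 4.80 FPKM apart from the rest of its group, while the other highly expressed members overlap between the groups.

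None of the 6 nearest protein-coding genes, 3 on each side, parted the groups as Scgn did. Carmil1, an actin capping protein regulator listed under its older symbol Lrrc16a, has its nearer end, the 3′ end, 21.1 kb from Scgn and had 9.59, 6.63, 9.74 and 10.3 FPKM in the 5xFAD libraries, against 8.87, 8.73, 9.84 and 9.38 FPKM in the wild type libraries. The groups overlapped for this gene. Further out on the same side, Cmah lay between 0.404 and 1.27 FPKM in 5xFAD and between 0.624 and 1.69 FPKM in wild type, and Ripor2 (listed as Fam65b) between 6.17 and 7.41 FPKM in 5xFAD and between 6.88 and 8.54 FPKM in wild type. On the other side, Hist1h2aa, Hist1h2ba and Slc17a4 were each listed at 0 in 7 of 8 libraries and at no more than 0.324 FPKM in the eighth. The antisense gene Gm11339, which overlaps Scgn on the opposite strand, was listed at 0.478 FPKM in 5xFAD-21, at 0.24 FPKM in Normal-22 and at 0 in the other 6.

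Among the 13094 protein-coding genes with a mean of at least 1 FPKM, 5 were closest to Scgn by the Pearson correlation of log2(FPKM + 0.1) over the 8 libraries. These were Prrxl1 (r = 0.988), a homeobox gene of sensory neurons, Mkks (0.980), a chaperonin-like gene tied to cilia, Crybg3 (0.971), Trank1 (0.971) and Nadk2 (0.970), a mitochondrial NAD kinase. Prrxl1 had 4.44, 3.11, 3.83 and 4.43 FPKM in the 5xFAD libraries, against 0.29, 0.169, 0.962 and 0.146 FPKM in the wild type libraries. It had the same order of groups as Scgn, with Normal-22 again the highest wild type library and 5xFAD-2 the lowest of 5xFAD. Trank1 had 3.97, 1.47, 5.43 and 4.72 FPKM in the 5xFAD libraries, against 0.433, 0.393, 1.04 and 0.53 FPKM in the wild type libraries. Mkks spanned a much smaller range, with 11 to 12 FPKM in 5xFAD and 8.74 to 9.75 FPKM in wild type. Crybg3 lay at 16.9 to 18.7 FPKM in 5xFAD and 10.9 to 16 FPKM in wild type, and Nadk2 at 34.2 to 42.2 FPKM in 5xFAD and 21.1 to 31.9 FPKM in wild type. For all 5, Normal-22 was the highest wild type library. The 5 were picked for following Scgn over these same libraries, so this order largely comes from the choice. Prrxl1 and Trank1 reached a mean of 1 FPKM only through their 5xFAD values. The 8 points share their libraries, and the gap between the groups makes up much of each r, so these values are a description of likeness.

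**Figure D2:**
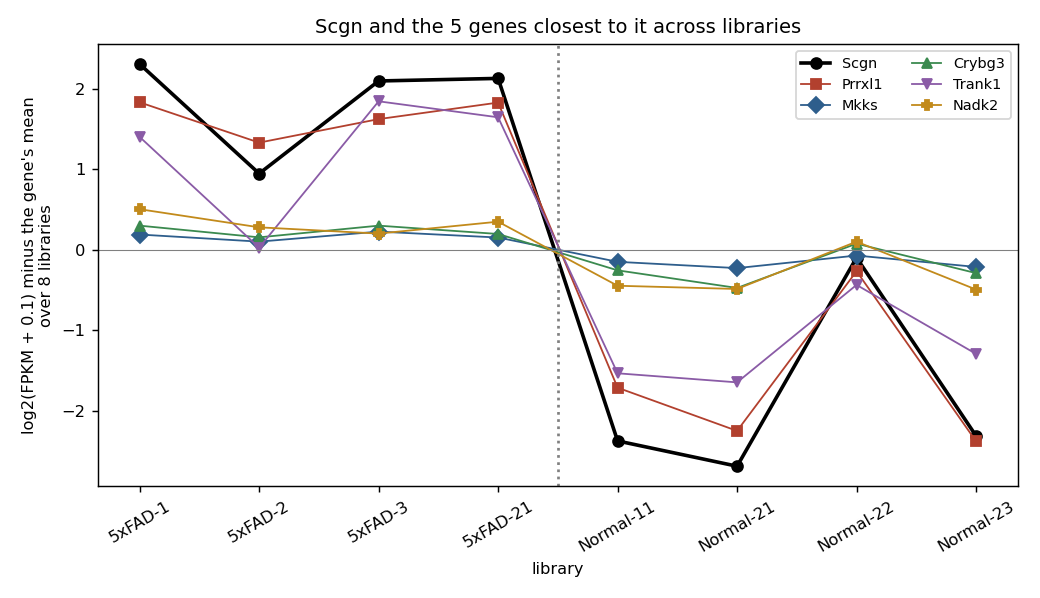
Log2(FPKM + 0.1) of Scgn (black) and of the 5 genes most correlated with it, each minus the gene's own mean over the 8 libraries (vertical axis, log2 units), for the 5xFAD libraries left of the dotted line and the wild type libraries right of it. All 6 genes dip in the wild type libraries and stand highest there in Normal-22, while the size of the swing is large for Scgn, Prrxl1 and Trank1 and small for Mkks, Crybg3 and Nadk2.

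The summed levels of pinealocyte and of secretory cell genes were also high in Normal-22, though not those of every gene. The 10 pinealocyte genes summed to 3300, 3060, 2020 and 2180 FPKM in the 5xFAD libraries, against 1530, 1280, 2930 and 1830 FPKM in the wild type libraries. In this sum, which came mostly from Tph1 and Sag, Normal-22 lay above 5xFAD-3 and 5xFAD-21. Its Scgn level lay below both. The 7 endocrine secretory genes, which include the granin Chga, summed to 2600, 1860, 1760 and 1820 FPKM in the 5xFAD libraries, against 1010, 1130, 2680 and 1770 FPKM in the wild type libraries. Most of this sum came from a single other granin gene, while Chga gave 105 to 165 FPKM in 5xFAD and 72.3 to 282 FPKM in wild type. Scg2 was highest in Normal-23 (284 FPKM). For both lists the groups overlapped. Normal-22 was the lowest wild type library for Aanat (1.21 FPKM) and for the secretory genes Pcsk2 (2.66 FPKM) and Cpe (65.3 FPKM). Snap25, which encodes the vesicle fusion protein that secretagogin binds, had 554, 404, 512 and 505 FPKM in the 5xFAD libraries, against 246, 289, 692 and 407 FPKM in the wild type libraries. Its log2 fold change was 0.38 (SE 0.30, adjusted p = 0.749 from limma), and its highest library of all was Normal-22. The part of these markers in the Scgn values was not tested.

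The other 8 members were compared in a limma fit over all genes with adjustment over all of them. Of the 13094 genes tested, 5 (0.0382%) had an adjusted p under 0.05, and none of the 4 other members that entered this fit was among them. At an unadjusted p under 0.05 there were 1041 genes (7.95%), and 1 of the 4, Hpca, was among them. All 4 had a positive log2 fold change, the smallest 0.05 for Hpcal1, and 6382 of the 13094 genes tested had one. Their median was 0.46, where the median over all genes tested was -0.01. The 5th to 95th percentile of single genes ran from -0.56 to 0.49. None of the 4 parted the groups.

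Neurocalcin delta is a sensor known to bind clathrin, and its gene Ncald was the most abundant member per length. Ncald (chr15:37366175-37792570, minus strand) had 30.6, 45.1, 23.9 and 28.1 FPKM in the 5xFAD libraries, against 12.9, 20.4, 31.7 and 22.4 FPKM in the wild type libraries. The highest library was 5xFAD-2 and the lowest Normal-11, and Normal-22 exceeded every 5xFAD library except 5xFAD-2. The means were 31.9 ± 9.19 FPKM in 5xFAD and 21.9 ± 7.73 FPKM in wild type (SD, n = 4 each), and the log2 fold change was 0.57 (SE 0.28, 95% interval -0.07 to 1.22, adjusted p = 0.640 from limma). The difference therefore lay within the replicate spread, and the interval reaches 1.22 on the log2 scale. Of the 100-base runs in Ncald transcripts, 3.61% also occurred in the overlapping genes Gm28221 and Gm49397, which were listed at 0 in 7 of 8 and in all 8 libraries, and the counts of Ncald did not come out as whole fragments.

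Hippocalcin takes part in the calcium-dependent slow afterhyperpolarization of hippocampal neurons. Its gene Hpca (chr4:129111570-129122036, minus strand) had 10.6, 10.2, 7.49 and 7.22 FPKM in the 5xFAD libraries, against 6.28, 4.09, 8.51 and 5.53 FPKM in the wild type libraries. Only Normal-22 of the wild type libraries reached into the range of 5xFAD, where it exceeded 5xFAD-3 and 5xFAD-21. The log2 fold change was 0.56 (SE 0.23, 95% interval 0.03 to 1.09, unadjusted p = 0.0406, adjusted p = 0.607 from limma). The overlapping gene Tmem54 was listed at no more than 0.131 FPKM in any library.

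Neuronal calcium sensor 1, the product of Ncs1, is a founding member of its family and is known to activate the phosphatidylinositol 4-kinase encoded by Pi4kb. Ncs1 (chr2:31245823-31295989, plus strand) had 4.06, 5.27, 5.06 and 5.41 FPKM in the 5xFAD libraries, against 3.01, 3.56, 4.93 and 4.09 FPKM in the wild type libraries. The overlap came from 5xFAD-1, which lay below Normal-22 and Normal-23. The log2 fold change was 0.35 (SE 0.18, 95% interval -0.06 to 0.76, adjusted p = 0.641 from limma). Pi4kb itself stood at 22.8 to 26.2 FPKM in 5xFAD and 19.0 to 27.4 FPKM in wild type.

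Hippocalcin-like 1, encoded by Hpcal1 and also called VILIP-3, ran the other way in Normal-22. Hpcal1 (chr12:17690856-17791933, plus strand) had 5.73, 6.02, 6.66 and 7.45 FPKM in the 5xFAD libraries, against 8.41, 7.35, 4.40 and 5.45 FPKM in the wild type libraries. The wild type libraries lay on both sides of the 5xFAD range, and Normal-22 was the lowest library of all. The log2 fold change was 0.05 (SE 0.21, 95% interval -0.42 to 0.52, adjusted p = 0.955 from limma), and its sign turned in some settings, to -0.11 without Normal-22.

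Normal-22 was the highest wild type library for Scgn, Ncald, Hpca and Ncs1 and the lowest for Hpcal1. Without it, 92 of 13134 genes (0.7%) had an adjusted p under 0.05 in limma, and none of these 4 members was among them: the log2 fold changes were 0.78 for Ncald (adjusted p = 0.197), 0.73 for Hpca (adjusted p = 0.153), 0.47 for Ncs1 (adjusted p = 0.218) and -0.11 for Hpcal1 (adjusted p = 0.753). At an unadjusted p under 0.05, 3 of the 4, Ncald, Hpca and Ncs1, passed without Normal-22, where 2374 of all genes (18.1%) did. Between the libraries with title numbers below 20 the log2 difference of Ncald was 1.31, and between those of 20 or above it was 0.20, and Hpcal1 had -0.45 and 0.40 in these sets. Each set holds only 1 library of one of the groups, so no test was made within it.

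The genes most like each of these members across the 8 libraries were not the ones most like Scgn. For Ncald they were Ncoa4 (r = 0.987), Pcyt2 (0.978) and Dbndd1 (0.977), for Hpca they were Uba3 (0.982), Eid2 (0.981) and Zc3h15 (0.981), and for Ncs1 they were Dnal1 (0.970), Snrnp35 (0.968) and Uhmk1 (0.961). Hpcal1 was closest to Rapgef3 (r = 0.974), Itga2b (0.946) and Nrgn (0.945). Itga2b, a platelet and megakaryocyte integrin, had 1.63, 1.78, 2.25 and 3.84 FPKM in the 5xFAD libraries, against 4.80, 3.85, 0.967 and 2.30 FPKM in the wild type libraries. As for Hpcal1, Normal-11 was the highest and Normal-22 the lowest library. Nrgn, a calmodulin-binding protein of neurons that is also known from platelets, spanned 1.78 to 4.46 FPKM in 5xFAD and 1.06 to 7.51 FPKM in wild type. All of these r values are over the same 8 libraries and serve as a description.

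The 4 low members were Hpcal4, Pvalb, Vsnl1 and Calb1, each with a mean under 1 FPKM. Their tests come from a fit with no filter on the mean, over 18491 protein-coding genes, in which 8 genes (0.0433%) had an adjusted p under 0.05 in limma and 1421 (7.68%) an unadjusted p under 0.05, with none of the 4 among either. Their values rested on few fragments, 89 to 461 per gene over all 8 libraries, so counting error was large for each.

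Hippocalcin-like 4, encoded by Hpcal4 (chr4:123183227-123194701, plus strand), is a further sensor of the visinin-like group. It had 0.88, 0.616, 1.88 and 0.573 FPKM in the 5xFAD libraries, against 0.388, 0.57, 0.458 and 0.479 FPKM in the wild type libraries. Every 5xFAD library lay above every wild type library, which was true of 378 of 18491 genes (2.04%), but the nearest pair, 5xFAD-21 and Normal-21, held 37 and 40 fragments and their Poisson intervals (0.404 to 0.79 FPKM and 0.407 to 0.777 FPKM) nearly coincided. The log2 fold change was 0.79 (SE 0.37, unadjusted p = 0.0627, adjusted p = 0.656 from limma).

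Vsnl1, Hpcal4 and Calb1 shared their highest library, 5xFAD-3. So did Pvalb, described below, with 1.85 FPKM there and nearly the same, 1.84 FPKM, in Normal-21. Visinin-like 1, a sensor abundant in forebrain and cerebellar neurons, is encoded by Vsnl1 (chr12:11325242-11436613, minus strand), which had 0.149, 0.376, 2.15 and 0.257 FPKM in the 5xFAD libraries, against 0.368, 0.433, 0.0493 and 0.111 FPKM in the wild type libraries. Apart from 5xFAD-3, with 69 fragments, no library held more than 12 fragments of it. The log2 fold change was 0.90 (SE 0.72, adjusted p = 0.786 from limma). Calbindin D28k, a buffer of many neurons, is encoded by Calb1 (chr4:15881264-15908064, plus strand), which had 0.14, 0.0804, 0.597 and 0.182 FPKM in the 5xFAD libraries, against 0.228, 0.235, 0.186 and 0.334 FPKM in the wild type libraries. All 4 wild type values lay inside the range of 5xFAD, and the log2 fold change was -0.17 (SE 0.40, adjusted p = 0.914 from limma).

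Markers of GABA neurons and of oligodendrocytes had their maximum in 5xFAD-3 as well. Gad1, which encodes an enzyme of GABA synthesis, had 6.21 FPKM in 5xFAD-3 and 0.254 to 0.58 FPKM in the other 5xFAD libraries, against 0.10 to 0.171 FPKM in wild type. Gad1, Gad2 and Slc32a1, the vesicular GABA transporter gene, together summed to 0.289, 0.343, 8.40 and 0.646 FPKM in the 5xFAD libraries, against 0.21, 0.245, 0.16 and 0.10 FPKM in the wild type libraries. The whole neuron list of 10 genes, of which 4 had a mean of at least 1 FPKM, did not have its maximum there, with a sum of 107 to 156 FPKM in 5xFAD and 79.1 to 170 FPKM in wild type. The 7 habenula genes summed to 1.81 FPKM in 5xFAD-3 and to 0.485 to 0.549 FPKM in the other 5xFAD libraries, against 0.516 to 0.717 FPKM in wild type. Most of the sum in 5xFAD-3 came from Tac1 (1.04 FPKM). Only Tac1 and Tac2 were highest in that library, while Gpr151, Chrnb3, Pou4f1, Slc5a7 and Nwd2 were highest in others. The 6 oligodendrocyte genes summed to 79.0 FPKM in 5xFAD-3 and to 26.5 to 34.8 FPKM in the other 5xFAD libraries, against 23.5 to 64.5 FPKM in wild type. The 8 cerebellar genes summed to 138 to 268 FPKM in 5xFAD and 103 to 259 FPKM in wild type, carried by Car8, Cbln1 and Itpr1, and did not have their maximum in 5xFAD-3. In that list the Purkinje cell gene Pcp2 had its highest value, 0.716 FPKM, in 5xFAD-3, and Gabra6 stayed at no more than 0.0939 FPKM in any library. The genes most like Vsnl1 over the 8 libraries were Paqr8 (r = 0.935), Syt7 (0.918) and RP23-390N24.1 (0.907), and those most like Hpcal4 included Stmn2 (r = 0.908), a neuronal tubulin-binding protein gene, and the astrocyte gene Gfap (0.888). Those most like Calb1 were Cecr5 (r = 0.923), Zfp935 (0.906) and Zfp511 (0.884). The part of these neuron and oligodendrocyte markers in the values of the low members was not tested.

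Parvalbumin, a fast calcium buffer of fast skeletal muscle as well as of some neurons, is encoded by Pvalb (chr15:78191114-78206400, minus strand). Pvalb had 0.578, 0.962, 1.85 and 0.191 FPKM in the 5xFAD libraries, against 1.17, 1.84, 0.0967 and 0 FPKM in the wild type libraries. High and low libraries occurred in both groups, and the log2 fold change was 0.77 (SE 1.01, adjusted p = 0.836 from limma). The 10 fast skeletal muscle genes summed to 3.23, 7.68, 11.9 and 2.40 FPKM in the 5xFAD libraries, against 11, 13.1, 2.88 and 3.23 FPKM in the wild type libraries. The 4 libraries lowest in Pvalb, namely 5xFAD-1, 5xFAD-21, Normal-22 and Normal-23, were also the 4 lowest in this sum. Of these 10 genes, 3 had a mean of at least 1 FPKM, and the muscle actin gene Acta1 and the creatine kinase gene Ckm stayed at no more than 1.93 FPKM. Their part in the Pvalb values was not tested. The genes most like Pvalb were Rell1 (r = 0.935), Naprt (0.928) and Usp45 (0.915).

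**Figure D3:**
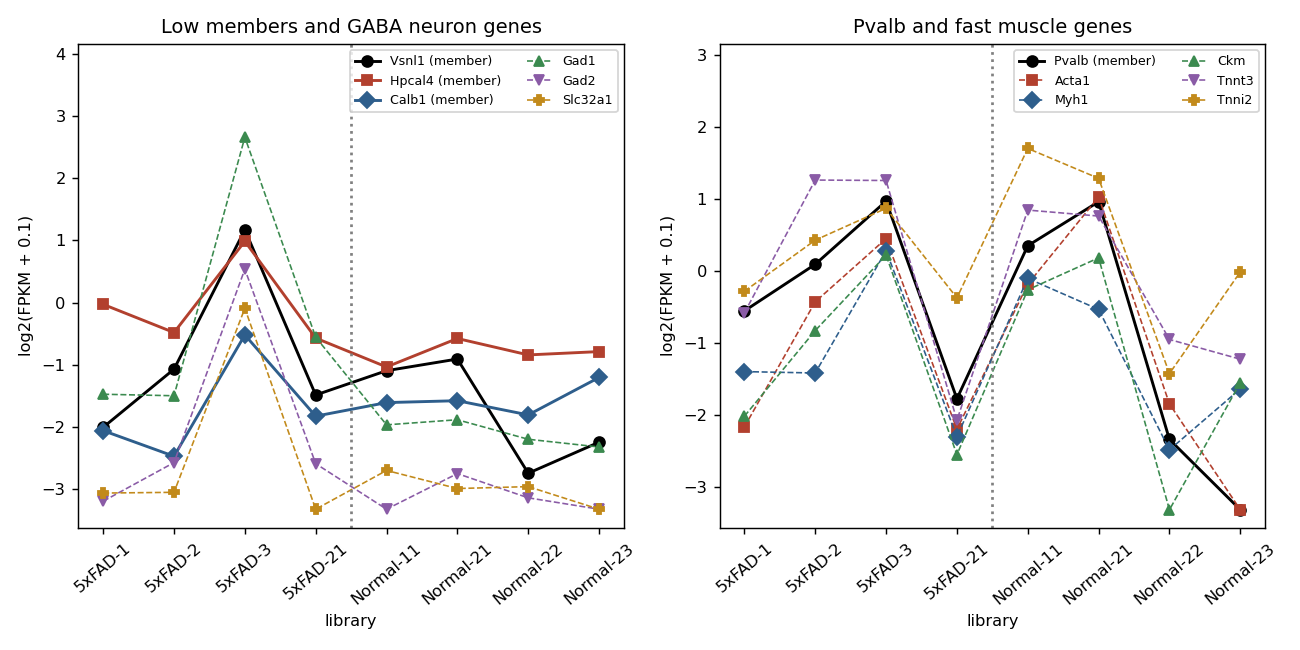
Log2(FPKM + 0.1) per library (vertical axes, log2 units), with the 5xFAD libraries left of the dotted line and the wild type libraries right of it, for Vsnl1, Hpcal4 and Calb1 with 3 GABA neuron genes (left panel) and for Pvalb with 5 fast muscle genes (right panel). The 3 members and the 3 GABA neuron genes in the left panel all peak in 5xFAD-3, where Gad1 reaches 6.21 FPKM and Vsnl1 2.15 FPKM, and Pvalb in the right panel is high in 5xFAD-2, 5xFAD-3, Normal-11 and Normal-21.

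By level per length, the order of the mean FPKM in 5xFAD was Ncald (31.9), Scgn (20.2), Hpca (8.88), Hpcal1 (6.46), Ncs1 (4.95), Hpcal4 (0.988), Pvalb (0.896), Vsnl1 (0.732) and Calb1 (0.25). In wild type it was Ncald (21.9), Hpcal1 (6.40), Hpca (6.10), Ncs1 (3.90), Scgn (1.85), Pvalb (0.778), Hpcal4 (0.474), Calb1 (0.245) and Vsnl1 (0.24). Scgn thus held the second place in 5xFAD and the fifth in wild type. In 5xFAD the library ranges of neighbours in this order overlapped, except between Hpcal1 and Ncs1 and between Ncs1 and Hpcal4. In wild type they overlapped except between Ncald and Hpcal1 and between Hpcal4 and Calb1, so most of the order is not fixed beyond the spread of the libraries. The spread among the 4 libraries of a group, as the coefficient of variation, was smallest for Hpcal1 (11.8%) and Ncs1 (12.3%) in 5xFAD and for Hpcal4 (15.9%) and Ncs1 (21%) in wild type, and that of Scgn was 34.5% in 5xFAD and 107% in wild type.

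The other EF-hand genes were taken as 7 lists with 63 genes, of which 44 entered the fit. Their median log2 fold change was 0.07, beside -0.01 over all genes tested, and 29 lay above 0 and 15 below. Over all genes tested, 6382 lay above 0 and 6712 below. None passed an adjusted p under 0.05. At an unadjusted p under 0.05, 5 were higher in 5xFAD (Guca1a, Kcnip2, Caln1, Calml4 and Efhd1), where 602 of all genes tested (4.6%) were. Capns2 and Rcn1, 2 genes, were lower, where 439 of all genes (3.35%) were. Of these, Capns2 lay just above the filter on the mean, as described below.

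The neuronal calcium sensors other than the members had the highest median of these lists, 0.70 over the 4 of 7 genes that entered the fit. This median leaves out the genes under the filter. With no filter on the mean, their log2 fold changes were 1.65 for Kcnip1, -0.49 for Kcnip4 and -0.57 for Rcvrn. Guca1a, which encodes the guanylate cyclase activator GCAP1 known from photoreceptors, had 55.6, 42.4, 51.6 and 67.7 FPKM in the 5xFAD libraries, against 21.8, 22.4, 30.9 and 26.3 FPKM in the wild type libraries. The groups did not overlap, as for 276 of all genes tested (2.11%), and the log2 fold change was 1.09 (SE 0.17, unadjusted p = 0.000132, adjusted p = 0.192 from limma). Without Normal-22 it was 1.19 (adjusted p = 0.0311). Kcnip2, a subunit of A-type potassium channels, had 2.69, 4.29, 3.01 and 3.25 FPKM in the 5xFAD libraries, against 1.59, 1.27, 2.27 and 1.22 FPKM in the wild type libraries. Here too the groups stood apart, with Normal-22 nearest to 5xFAD, and the log2 fold change was 1.03 (SE 0.25, adjusted p = 0.516 from limma). Kcnip3 lay at 3.05 to 7.09 FPKM in 5xFAD and 3.72 to 7.22 FPKM in wild type, and Rcvrn, the sensor recoverin of photoreceptors, stayed at no more than 0.488 FPKM in any library.

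Among the calmodulins and calcium binding proteins, with a median of 0.39 over 7 of 12 genes, Caln1 was the gene whose groups did not overlap. Caln1, which encodes calneuron 1, a sensor of the Golgi of neurons, had 3.99, 3.15, 4.12 and 2.62 FPKM in the 5xFAD libraries, against 1.53, 1.48, 2.56 and 1.22 FPKM in the wild type libraries. Normal-22 lay just under 5xFAD-21, and the log2 fold change was 1.02 (SE 0.26, adjusted p = 0.541 from limma). The most abundant genes of this list were Calm2, with 206 to 267 FPKM in 5xFAD and 201 to 211 FPKM in wild type, Calml4, and Calm3, with 118 to 142 FPKM in 5xFAD and 116 to 140 FPKM in wild type. Calml4, a calmodulin-like gene known from the brush border of epithelia, had 253, 295, 164 and 324 FPKM in the 5xFAD libraries, against 162, 138, 175 and 168 FPKM in the wild type libraries. Only 5xFAD-3 lay within the wild type range, and the log2 fold change was 0.65 (SE 0.21, adjusted p = 0.569 from limma).

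The other lists had medians from -0.12 to 0.12. The S100 proteins had a median of -0.10 over 11 of 14 genes with no gene at an unadjusted p under 0.05. Their most abundant gene, S100a1, lay at 115 to 184 FPKM in 5xFAD and 109 to 183 FPKM in wild type. S100a9, a granule protein of neutrophils, spanned 10.9 to 117 FPKM in 5xFAD and 12.8 to 217 FPKM in wild type beside a neutrophil list sum of 23 to 247 FPKM in 5xFAD and 20 to 442 FPKM in wild type, and S100a6 spanned 25.4 to 97.9 FPKM in 5xFAD and 21.4 to 70.2 FPKM in wild type. The CIB, calcineurin B and NECAB proteins had a median of 0.12 over 9 of 14 genes. Ppp3r1, the regulatory subunit of calcineurin, lay at 41.1 to 49.1 FPKM in 5xFAD and 36.6 to 43.3 FPKM in wild type, Chp1 at 24.7 to 45.9 FPKM in 5xFAD and 20 to 37.0 FPKM in wild type, and Cib2 at 23.6 to 38.7 FPKM in 5xFAD and 16.6 to 34.2 FPKM in wild type. Calretinin, oncomodulin and calbindin D9k, encoded by Calb2, Ocm and S100g, were near or at 0, with a highest value of 0.499 FPKM for Calb2 in 5xFAD-21.

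The penta-EF-hand proteins, with a median of 0.05 over all 6 genes, held the one gene of the lists that lay lower in every 5xFAD library. Capns2, a small subunit of calpains, had 0.31, 0.588, 0.708 and 0.715 FPKM in the 5xFAD libraries, against 2.37, 1.15, 1.81 and 1.02 FPKM in the wild type libraries. Its log2 fold change was -1.29 (SE 0.39, adjusted p = 0.545 from limma), and a separation in this direction was found for 292 of all genes tested (2.23%). Capns2 passed the filter of 1 FPKM only through its wild type values, as its 5xFAD mean was 0.58 FPKM. Its mean over all libraries was 1.08 FPKM, and it fell under the filter when Normal-11 or Normal-22 was left out. With no filter on the mean, its log2 fold change was again -1.29 (SE 0.36, adjusted p = 0.493 from limma). The other small subunit, Capns1, lay at 88.2 to 127 FPKM in 5xFAD and 89.2 to 119 FPKM in wild type, Pdcd6 at 28.4 to 41.6 FPKM in 5xFAD and 26.6 to 42.3 FPKM in wild type, and Pef1 at 28.3 to 36.4 FPKM in 5xFAD and 26.2 to 32.8 FPKM in wild type. The secretory pathway proteins had a median of -0.12 over all 7 genes. Sdf4 lay at 128 to 164 FPKM in 5xFAD and 107 to 153 FPKM in wild type, Calu at 68.5 to 107 FPKM in 5xFAD and 75.7 to 118 FPKM in wild type, and Rcn2 at 49.1 to 56.1 FPKM in 5xFAD and 44.5 to 54.3 FPKM in wild type. Of 9 partner proteins of the members, 7 matched the table and 6 entered the fit, with a median of 0.01 and no gene at an unadjusted p under 0.05. Among these were Snap25, Ap2b1, an adaptor of clathrin coats (43.0 to 49.8 FPKM in 5xFAD and 39.2 to 51.5 FPKM in wild type), and Impa1, an inositol phosphatase that binds calbindin D28k (23.1 to 30.1 FPKM in 5xFAD and 21.3 to 27.3 FPKM in wild type).

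**Figure D4:**
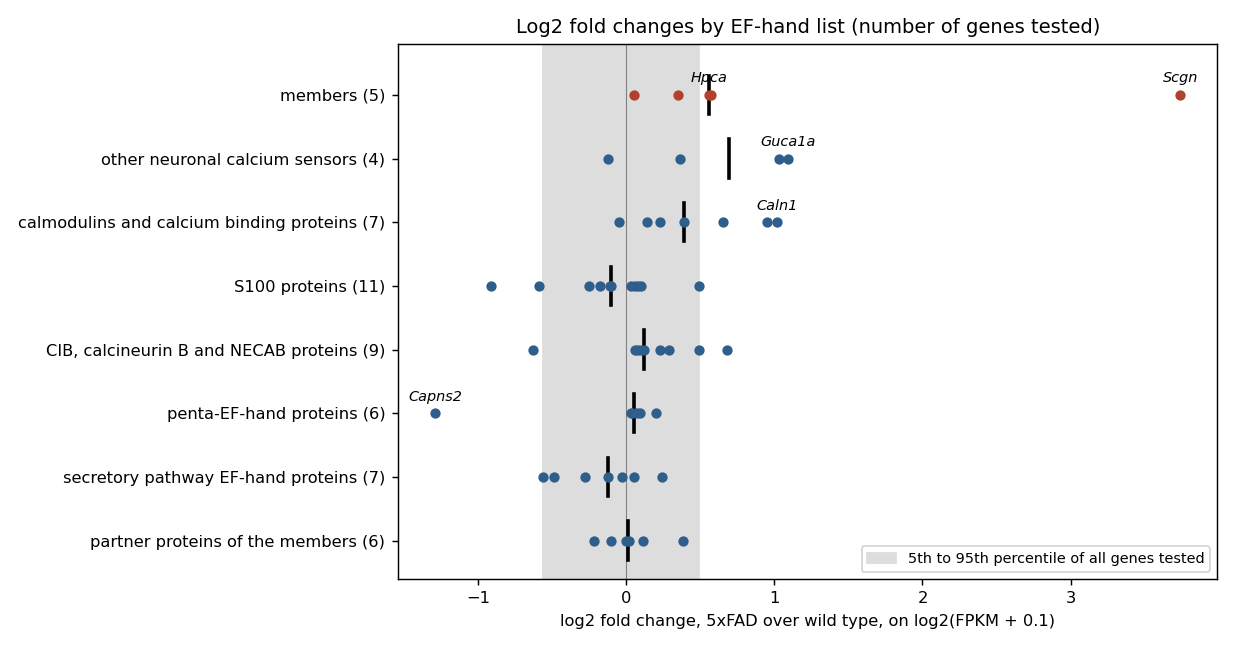
Log2 fold change of 5xFAD over wild type on log2(FPKM + 0.1) (horizontal axis), 1 point per gene. Red points are the 5 members with a mean of at least 1 FPKM. Blue points are the tested genes of the EF-hand lists and, as a separate list, of the partner proteins. The list of calretinin, oncomodulin and calbindin D9k had no gene tested and is not shown. The black bar marks the list median, and the grey band the 5th to 95th percentile of all 13094 genes, -0.56 to 0.49. Scgn stands alone at 3.74, Guca1a, Kcnip2 and Caln1 lie above 1, Capns2 at -1.29, and most other EF-hand genes fall within the band.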

How the data were processed

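Total RNA of pooled pineal glands was depleted of ribosomal RNA and made into stranded libraries, which were read in pairs. The deposited FPKM values were made by the authors, who trimmed the reads with Trimmomatic, aligned them to the mouse genome (mm10, GRCm38.p6) with STAR and ran Cuffnorm on GENCODE release M17. The versions and the library normalization of Cuffnorm are not given in the sources used here. The mean columns of the authors were not used.

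From the FPKM, fold changes were computed on log2(FPKM + 0.1) in R 4.3.3 by limma 3.58.1, with lmFit and then eBayes that models a trend, for 13094 protein-coding genes with a mean of at least 1 FPKM, without a covariate and with Benjamini-Hochberg adjustment over all of them. This took the place of the gene-wise test on FPKM in the study's methods. The fit was tested on simulated data. For single-transcript genes under 10 fragments, 97.8 to 98.6% of the values per library were whole fragments within 0.05, and Poisson intervals of members come from these fragments. Every value of 5 members (Scgn, Calb1, Hpcal1, Hpcal4 and Ncs1) lay within 0.1 of a whole fragment, and those of Ncald, Hpca, Pvalb and Vsnl1 were up to 0.5 off and were rounded. Positions and biotypes are from GENCODE release M21 of the same build, and promoter windows from RefSeq. Tables were handled in Python 3.11.15.

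The members, lists and tests were chosen with earlier results of these data known. Named were all members, list genes with an unadjusted p under 0.05 whose groups did not overlap, up to 3 genes per list by mean FPKM, the genes most correlated with each member, the 3 nearest protein-coding genes on each side of Scgn, and highest markers. Gm11339, Tmem54, Pi4kb, Rcvrn, Efhd1, Rcn1, Calml4 as a tested gene, and the single markers Xist, Ddx3y, Ucp1, Gad1, Aanat, Chga, Pcsk2, Cpe, Pcp2 and Gabra6 were picked with their values in view, as were S100a5, Cabp7 and Cabp5 in the closing section. A gene that this rule names and a detail of the 5xFAD genotype are not reported here. Alternatives used a pseudocount of 0.01 or 1, a minimum mean of 5 FPKM or none, median-ratio scaling, quantile normalization and no trend. Others added a term for title numbers of 20 or above or a block for library order within a group, or left out each library. Comparing libraries only within the sets of title numbers was chosen after seeing the data.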

Additional observations from a re-analysis of the deposited data

Results flagged for a closer look

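In 67 groups of 4 libraries (members and named list genes, each in 5xFAD and in wild type), the gap between the highest or lowest library and its nearest neighbour was set against the whole range of the group. It passed Dixon's 95% critical value for 4 samples in 5 of them, and chance alone passes about 1 in 20 groups. The values of Scgn and Ocm cannot be read against that rate. Scgn, which was chosen for its level in this library, stood at 4.80 FPKM in Normal-22, with 0.715 to 0.958 FPKM in the other 3 wild type libraries (gap over range 0.941). Vsnl1 stood at 2.15 FPKM in 5xFAD-3, with 0.149 to 0.376 FPKM in the other 3 5xFAD libraries (0.886). Kcnip3, a sensor that binds potassium channels and DNA, stood at 7.22 FPKM in Normal-21, with 3.72 to 4.29 FPKM in the other 3 wild type libraries (0.837), although 5xFAD-3 had 7.09 FPKM. Pef1 stood at 26.2 FPKM in Normal-11, with 32.0 to 32.8 FPKM in the other 3 wild type libraries (0.879). Ocm was listed at 0.176 FPKM in Normal-23 and at 0 in the other 7 libraries, and any value above 0 would have passed against 3 values of 0.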

How the results depend on the processing

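The log2 fold change of Scgn ran from 3.03 to 4.32 over 19 alternatives, and those of Ncald, Hpca and Ncs1 stayed above 0 in all that were run, from 0.20 to 1.31, from 0.32 to 0.73 and from 0.24 to 0.65. The sign of Hpcal1 turned with the title number term (-0.02), between libraries with title numbers below 20 (-0.45) and without 5xFAD-21, Normal-22 or Normal-23, with a range of -0.11 to 0.19 over all left-out libraries. Of the members other than Scgn, which was given no test, 0 passed an adjusted p under 0.05 in any setting. At an unadjusted p under 0.05, 1 member other than Scgn passed, 2 passed with the title number term, and 0 to 3 when single libraries were left out: 0 without 5xFAD-2, Normal-11, Normal-21 or Normal-23 and 3 without Normal-22. In the EF-hand and partner lists, the adjusted p of Guca1a alone passed without Normal-22 (0 to 1 gene over the left-out libraries). The 5 higher genes at an unadjusted p became 8 with no filter and 2 at a minimum mean of 5 FPKM (4 to 9 over the left-out libraries), and the 2 lower genes became 1 at a minimum mean of 5 FPKM and 6 with the title number term (1 to 4). Libraries were also numbered by their listed order within each group. This set 5xFAD-1 beside Normal-11, 5xFAD-2 beside Normal-21, 5xFAD-3 beside Normal-22 and 5xFAD-21 beside Normal-23. Deviations of libraries set side by side correlated at -0.0402, 0.206, -0.342 and 0.242. The study's methods state no pairing, and 5xFAD-21 and Normal-21, which share a title number, were not compared in this way. With the order number as a block, 0 members other than Scgn passed the unadjusted p. Depth limits the members under 1 FPKM, with as few as 0 fragments of Pvalb and 1 of Vsnl1 in a library. With 4 pools per group, differences of about the size of the 95% intervals in the text could be missed.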

Other observations

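S100a5, an EF-hand gene known from olfactory sensory neurons, was listed at 7.51 FPKM in 5xFAD-3 and at 0 in the other 7 libraries. This is the library in which Vsnl1, Hpcal4, Calb1, Pvalb, Gad1, Gad2 and Slc32a1 were also highest. Cabp7, a calcium sensor of the Golgi, had 0.962 FPKM in 5xFAD-3 as well, 0.0442 to 0.211 FPKM in the other 5xFAD libraries and 0 to 0.153 FPKM in wild type. Both genes lay under a mean of 1 FPKM. In the limma fit with no filter the adjusted p was 0.802 for S100a5, for which no fold is given since all wild type libraries were at 0, and 0.746 for Cabp7 (log2 fold change 0.92, SE 0.62).

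Cabp5, a calcium binding protein of retinal bipolar cells, had 102, 97.4, 109 and 161 FPKM in the 5xFAD libraries with title numbers 1, 2, 3 and 21, against 32.5, 34.5, 137 and 82.2 FPKM in the wild type libraries with numbers 11, 21, 22 and 23. Normal-22 lay above 3 of the 4 5xFAD libraries. For Scgn, which was chosen for its intermediate level in Normal-22, that library lay below all 4. No test of their relation was made.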
